A study of Mus musculus with 12 samples.

Results

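Imprinted genes, which are transcribed mainly from the chromosome of a single parent, were followed in fetal mouse gonads as a list of 38 members led by Phlda2. A member was measured where the platform annotation gave it as the only symbol of a transcript cluster, the set of array probes that reads the transcripts of a gene. By this rule 33 of the 38 members were measured, each on 1 cluster, among 30184 symbols of the whole array. H19, Snrpn, Meg3 and Rtl1 lay only on clusters that carried further symbols, so no value is given for them, and Slc22a3 was not analysed here. The labels place the embryos at embryonic day 12.5 (E12.5), whereas the data statement of the study assigns this set of arrays to a later fetal stage. The study's methods give 4 replicates per genotype at E12.5 and a larger number at the later stage. The 4 arrays per group used here match the labels, which were followed. The embryos were on a C57BL/6 background, and 4 arrays were run for each of 3 groups. The groups were Amh-/-; Inhbb-/- double knockout XY gonads (dKO XY), Amh+/+; Inhbb+/+ XX ovaries (control XX) and Amh+/+; Inhbb+/+ XY testes (control XY). Amh encodes anti-Müllerian hormone and Inhbb the beta subunit of activin B, both made by Sertoli cells of the fetal testis, and both alleles of each gene were lost in every cell of the dKO XY embryo. Whole gonads freed of the mesonephros were used, so fewer cells of a type and less RNA per cell cannot be told apart in any value. The sources used here do not say which embryos or how many gonads made a sample, and p-values measure the spread between these samples. The comparisons ask which transcripts of the XY gonad depend on AMH and activin B, and whether the dKO XY level lies nearer to the ovary or to the testis.

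Imprinting is set in the germ line, where DNA methylation marks an imprinting control region on either the egg-derived or the sperm-derived chromosome, and the mark is then kept in somatic cells after fertilization. Imprinted genes lie in clusters, and a long noncoding RNA read from the unmethylated copy often silences its neighbours on the same chromosome. Many of them act on fetal and placental growth. Primordial germ cells erase the marks and set them anew according to the sex of the embryo, whereas the somatic cells of the gonad keep them. The array reads the sum of both parental alleles, so no value below separates the alleles.

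The labels were checked first. Amh lay at 5.59 to 5.90 log2 intensity in dKO XY and at 10.56 to 13.38 in control XY, with no overlap, and Inhbb at 6.69 to 6.99 in dKO XY and 7.10 to 8.02 in control XY. Sox9, the transcription factor that defines Sertoli cells, lay at 9.94 to 10.85 in dKO XY, 6.91 to 7.67 in control XX and 10.04 to 10.68 in control XY, whereas Fst, a marker of pre-granulosa cells, lay at 6.24 to 6.56 in dKO XY, 10.02 to 11.80 in control XX and 5.68 to 6.48 in control XY. Arrays within a group correlated at 0.974 to 0.992 over all clusters. The signal contrast of an array, the mean of its positive minus the mean of its negative control probe sets, was 2.48 to 3.83 in dKO XY, 3.21 to 3.65 in control XX and 3.70 to 4.44 in control XY. The 95th percentile of the negative control probe sets was high, at 9.94 to 10.86, and 21 of the 33 members lay above it on no array, 8 on at least 4 arrays and 4 on all 12. Nr5a1, which defines the somatic cells of the gonad, was also above it on no array, so a value under this mark does not show that a gene was silent.

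Phlda2 was the member that differed most. It encodes a small pleckstrin homology domain protein that restrains placental growth in the mouse and is expressed from the maternal allele. It lies beside Slc22a18 and Cdkn1c in the Kcnq1 domain of distal chromosome 7. Phlda2 and its immediate neighbour Slc22a18 are read in opposite directions. Their group means had the same order in the arrays, but only Phlda2 differed at an adjusted p under 0.05. The 250 bases before the start sites of both are shown. They are from RefSeq (GRCm38.p6), the first on the minus strand of chr7:143502525-143502774 and the second on the plus strand of chr7:143473539-143473788, and capitals mark the letters TATAAA and CCAAT on either strand.
Phlda2: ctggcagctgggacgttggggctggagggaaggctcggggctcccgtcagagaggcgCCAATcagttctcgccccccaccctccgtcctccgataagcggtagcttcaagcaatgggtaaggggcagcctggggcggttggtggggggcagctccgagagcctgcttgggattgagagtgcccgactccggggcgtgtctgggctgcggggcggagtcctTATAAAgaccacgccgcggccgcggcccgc
Slc22a18: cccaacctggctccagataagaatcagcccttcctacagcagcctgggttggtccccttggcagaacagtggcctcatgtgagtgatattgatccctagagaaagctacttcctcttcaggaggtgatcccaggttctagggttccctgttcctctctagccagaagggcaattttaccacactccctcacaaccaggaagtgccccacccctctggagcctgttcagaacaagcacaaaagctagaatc
The Phlda2 stretch holds 21 CpG dinucleotides and 68.8% G and C, with TATAAA at -30 and CCAAT at -193 counted from the start, and the letters GGGCGG in 2 places. The Slc22a18 stretch holds 0 CpG dinucleotides and 52.8% G and C, with none of these 3 motifs. Searched on both strands over 32851 listed promoter stretches of the same length, TATAAA was found in 12.4%, CCAAT in 33.8% and GGGCGG in 32.7%, and the median stretch held 6 CpG dinucleotides. The letters AAGGTCA, a half-site of the gonadal factor NR5A1, and AACAAT, a core of SOX factors, were in neither stretch and in 4.1% and 9.4% of all stretches. GATAA, a core of GATA factors, was in both, at -159 for Phlda2 and -235 for Slc22a18, and in 22.6% of all stretches. Of the 33 measured members 27 had an entry, with 35 stretches whose median was 14 CpG dinucleotides. These matches describe letters and not occupied sites.

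Phlda2 was highest in the ovary. Its log2 intensity was 9.35, 11.16, 11.44 and 11.24 in the control XX arrays, against 6.23, 6.34, 6.06 and 5.91 in the control XY arrays. The difference was 4.66 ± 0.36 on the log2 scale (SE, n = 4 each) (adjusted p = 4.16e-05). By this difference Phlda2 ranked 5 from the top of 30184 symbols. In the dKO XY arrays Phlda2 read 7.25, 7.84, 7.36 and 7.35, so every dKO XY array lay above every control XY array and below every control XX array. The dKO XY level was 1.32 ± 0.36 higher than that of control XY (adjusted p = 0.029), and it differed from that of control XX by -3.35 (adjusted p = 0.00284), both on the log2 scale. Phlda2 ranked 103 from the top by its dKO XY minus control XY difference and 4 from the bottom by its dKO XY minus control XX difference.

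The comparisons of Phlda2 with control XX held when any array was left out, but that between dKO XY and control XY did not. The adjusted p of that contrast was 0.0693 without dKO XY 1, 0.0757 without dKO XY 3, 0.0511 without dKO XY 4, 0.0531 without control XY 2, 0.0837 without control XY 3 and 0.0634 without control XY 4, while the difference kept between 1.19 and 1.39. The control XX array 1, at 9.35, stood below the 11.16 to 11.44 of the other 3 arrays, and the difference between control XX and control XY was 5.15 without it. That array also had the lowest mean of the 13 pre-granulosa markers in its group, 7.64 against 7.75 to 8.29 in the other control XX arrays, and the highest mean of the 5 measured fetal Leydig markers, 7.57 against 6.55 to 6.85, and the part of either in the Phlda2 value was not tested. Phlda2 lay above the 95th percentile of the negative controls on 3 control XX arrays and on no dKO XY or control XY array. With that percentile set as the level of the control XY and dKO XY arrays, the control XX mean was 1.45-fold above control XY and 1.19-fold above dKO XY. Control XX 1, at 9.35, was itself under its percentile of 10.72, so these folds are not strict lower bounds. The mean of the 13 pre-granulosa markers moved in the same order as Phlda2, at 6.94 to 7.12 in dKO XY, 7.64 to 8.29 in control XX and 6.68 to 6.85 in control XY, and its part in the result was not tested. Of these 13 markers 10 were above the negative controls on no array. The mean of the 6 measured trophoblast markers was 5.81 to 6.36 in dKO XY, 5.78 to 6.05 in control XX and 5.50 to 5.70 in control XY, with none of the 6 above the negative controls on any array.

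**Figure D1:**
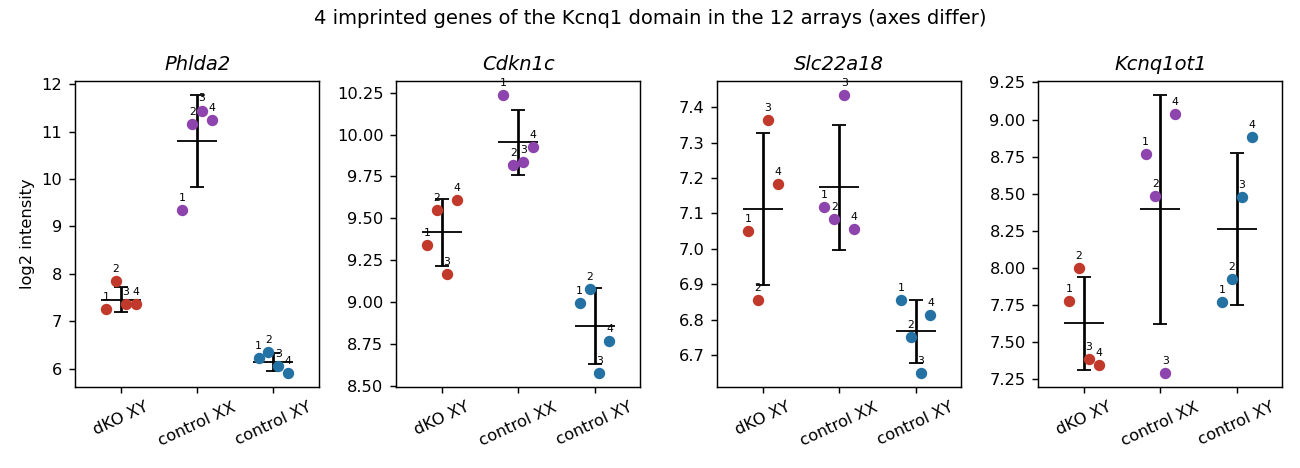
Log2 intensity of Phlda2, Cdkn1c, Slc22a18 and Kcnq1ot1 in each array of dKO XY, control XX and control XY. Points are arrays labelled with their replicate number, the horizontal mark is the group mean and the bar 1 SD (n = 4), and the vertical axes differ. Phlda2 and Cdkn1c have dKO XY between control XX and control XY without overlap, whereas Kcnq1ot1 overlaps between all groups.

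Cdkn1c followed the same order with smaller steps. It encodes the cyclin-dependent kinase inhibitor p57, which holds cells out of the cell cycle, and it is maternally expressed. It was above the 95th percentile of the negative controls on 0 of 12 arrays, so its values are given on the log2 scale with no fold. Cdkn1c read 10.24, 9.82, 9.84 and 9.93 in control XX and 8.99, 9.08, 8.58 and 8.77 in control XY. Its level in control XX was 1.10 ± 0.15 above that in control XY (adjusted p = 0.00235). In dKO XY it read 9.34, 9.55, 9.17 and 9.61, again above every control XY array and below every control XX array. Its dKO XY minus control XY difference was 0.56 ± 0.15 (adjusted p = 0.0272), and its dKO XY minus control XX difference was -0.54 (adjusted p = 0.285). The adjusted p between dKO XY and control XY was 0.068 without dKO XY 1, 0.063 without dKO XY 3, 0.0591 without dKO XY 4, 0.0846 without control XY 3 and 0.0595 without control XY 4. With every array centred on its median the difference was 0.30 (adjusted p = 0.207), and under cyclic loess normalization, which removes differences that follow the level, it was 1.13 (adjusted p = 0.0193).

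Among the other members of the Kcnq1 domain, Slc22a18 had its group means in the same order. Slc22a18, a transporter-like membrane protein, lay at 6.86 to 7.36 in dKO XY, 7.06 to 7.43 in control XX and 6.65 to 6.85 in control XY. Every dKO XY and control XX array was above every control XY array but the differences of 0.35 (95% interval 0.06 to 0.63, adjusted p = 0.063) and 0.41 (0.12 to 0.69, adjusted p = 0.131) did not pass the test. Kcnq1ot1, the paternally expressed noncoding RNA that silences the domain in cis, spanned 7.35 to 8.0 in dKO XY, 7.29 to 9.04 in control XX and 7.77 to 8.88 in control XY. Its groups overlapped in every comparison, with differences from control XY of -0.64 in dKO XY (adjusted p = 0.162) and 0.13 in control XX (adjusted p = 0.823). Cd81, a tetraspanin of the cell surface, read 14.00, 14.77, 13.89 and 14.58 in dKO XY, 14.09, 13.88, 14.17 and 14.57 in control XX and 15.26, 14.95, 15.08 and 14.82 in control XY. It was lower than control XY by a log2 difference of -0.72 in dKO XY (adjusted p = 0.0319), and -0.85 in control XX did not pass (adjusted p = 0.0566). Tspan32, another tetraspanin, lay at 6.24 to 6.70 and Ascl2, a transcription factor of the trophoblast, at 4.96 to 5.37 over the 12 arrays, and neither passed in any comparison. H19, at the other end of the imprinted region, had no value of its own.

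The neighbours of Phlda2 were compared next. In gene order, 22 measured genes around Phlda2, 14 on the side of Lsp1 and 8 on the side of Dhcr7, were measured. Between control XX and control XY 1 of the 22 was higher (Cdkn1c) and 1 lower (Lsp1, at -0.91, adjusted p = 0.00656), which is 9.09% where 1.95% of all clusters were called, and the differences spanned -0.91 to 1.10 against 4.66 for Phlda2. Between dKO XY and control XY 2 were higher (Cdkn1c, and Tnfrsf23 at 0.74, adjusted p = 0.0253) and 2 lower (Cd81, and Lsp1 at -0.89, adjusted p = 0.0163), which is 18.2% where 26.5% of all clusters and 31% of symbols were called. Lsp1 is a leukocyte-specific actin-binding protein and Tnfrsf23 a decoy receptor for TRAIL in the mouse. Nap1l4, the next gene beyond Phlda2, and Kcnq1, whose introns hold the start of Kcnq1ot1, did not pass in any comparison, nor did Igf2, whose mean was 11.49 in dKO XY, 11.75 in control XX and 11.70 in control XY. Phlda1 and Phlda3, the non-imprinted relatives of Phlda2 on other chromosomes, differed from control XY by -0.32 and -0.53 in dKO XY and by -0.12 and -0.56 in control XX, and none of these passed the test.

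**Figure D2:**
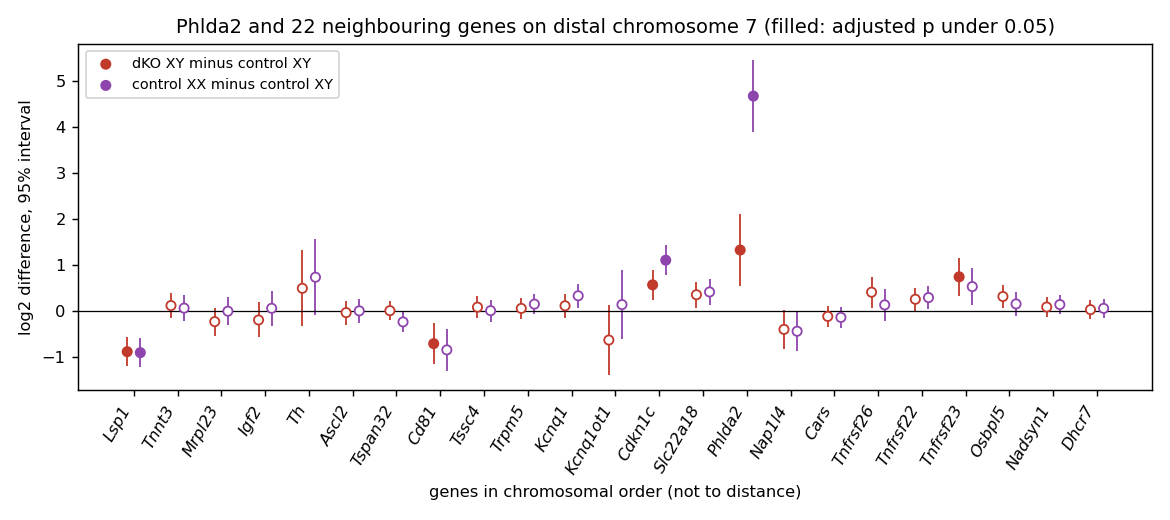
Log2 difference from control XY, with its 95% interval, for Phlda2 and 22 neighbouring genes in their order on chromosome 7, in dKO XY (red) and control XX (purple). Distances are not to scale and filled points have an adjusted p under 0.05. Phlda2 stands apart at 4.66 in control XX and 1.32 in dKO XY, while the neighbours lie between -0.91 and 1.10.

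Few members differed between the control sexes. Between control XX and control XY 2 of 33 members passed an adjusted p of 0.05, Phlda2 and Cdkn1c, both higher, where 1.95% of all clusters were called (0.608% higher, 1.34% lower) and 2.83% of symbols (0.696% higher, 2.13% lower). Both also passed the study's threshold of 2-fold, as did 0.984% of clusters. The median difference of the members was -0.07, and 0.12 over all clusters. An unadjusted p under 0.05 was reached by 11 members, and by 14329 of all 65956 clusters. Control XX lay wholly above control XY for 4 members, where this held for 7.98% of clusters, and wholly below for 5, against 5.76%. Among the members that did not pass, Peg10, a retrotransposon-derived gene needed for the placenta, lay at 11.24 to 12.55 in control XX and 10.62 to 11.24 in control XY (0.87, adjusted p = 0.195). Kcnk9, a potassium channel, lay at 7.24 to 9.0 in control XX and 6.02 to 7.20 in control XY, and its difference of 0.99 (adjusted p = 0.175) was 0.58 without control XX 1. Between dKO XY and control XX only Phlda2 passed, being lower in dKO XY, where 0.215% of all clusters (0.126% lower) and 0.331% of symbols (0.176% lower) were called, and 11 members had an unadjusted p under 0.05. In this comparison 6815 of all 65956 clusters had an unadjusted p under 0.05. The members' median in that comparison was -0.25, and 0.06 over all clusters.

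Between dKO XY and control XY 14 of 33 members passed, 3 higher and 11 lower, where 26.5% of all clusters were called (16.7% higher, 9.8% lower) and 31% of symbols (16.3% higher, 14.7% lower). The members that were higher in dKO XY were Phlda2, Cdkn1c and Rasgrf1, and those that were lower were H13, Mcts2, Nnat, Sgce, Ube3a, Cd81, Plagl1, Grb10, Dlk1, Airn and Impact. Past 2-fold 1 was higher (Phlda2) and 2 lower (Grb10 and Ube3a), where 4.28% of clusters were called (1.68% higher, 2.6% lower). Phlda2 was above the 95th percentile of the negative controls on no array of these groups. Of all 12 arrays, Ube3a was above it on 2 and Grb10 on 9. The groups did not overlap for 14 members, 5 above and 9 below, against 16.2% above and 8.24% below over all clusters. The members' median was -0.46, and 0.17 over all clusters. Markers of several cell types moved with these groups, in both directions. The mean of the 14 measured Sertoli markers was 9.29 to 9.85 in dKO XY and 10.72 to 11.51 in control XY, and that of the 9 interstitial progenitor markers 7.91 to 8.93 in dKO XY and 9.23 to 9.83 in control XY. The mean of the 5 fetal Leydig markers was 7.03 to 7.51 in dKO XY and 8.29 to 9.87 in control XY, and that of the 9 endothelial markers 7.32 to 7.91 in dKO XY and 7.95 to 8.36 in control XY. Each of these means was lower in dKO XY on all arrays (two-sided exact permutation p = 0.0286, adjusted p = 0.0601 over 42 tests). The Sertoli list holds Amh, a targeted gene, so part of its fall was fixed by the genotype. The median difference of its 14 markers was -0.46. The pre-granulosa, macrophage, mesonephros and trophoblast means were higher in dKO XY on all arrays, by 0.23, 0.24, 0.41 and 0.43, with the same p values. Of these markers 3 of 13, 2 of 8, 5 of 9 and 3 of 6 passed as higher in the fit and none as lower. No macrophage, mesonephros or trophoblast marker was above the negative controls on any array. The same held for 10 of 13 pre-granulosa and 6 of 14 Sertoli markers. It also held for 5 of 9 interstitial progenitor, 2 of 5 fetal Leydig and 7 of 9 endothelial markers. The means of the other lists overlapped between these groups. In the fit 6 of 14 Sertoli, 6 of 9 interstitial progenitor, 3 of 5 fetal Leydig and 4 of 9 endothelial markers passed as lower in dKO XY and none as higher, and the part of these markers in the fall of the 11 members was not tested. The calls depended on single arrays. The number of members that passed in limma was 0 without dKO XY 1, 0 without dKO XY 3 and 0 without control XY 3, where 18, 16 and 17 had an unadjusted p under 0.05, and 2 passed without control XY 4, 3 without control XY 2, 6 without dKO XY 4 and 22 without dKO XY 2. The dKO XY arrays 3 and 1 had the lowest signal contrast, 2.48 and 2.83. The split also moved with the scaling of the arrays, since 63.1% of called clusters were higher as deposited, 46.1% after quantile normalization, 19.5% with each array centred on its median and 51.8% after cyclic loess. The median difference over all clusters was 0.17 as deposited, -0.01 after quantile normalization and -0.09 with each array centred.

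**Figure D3:**
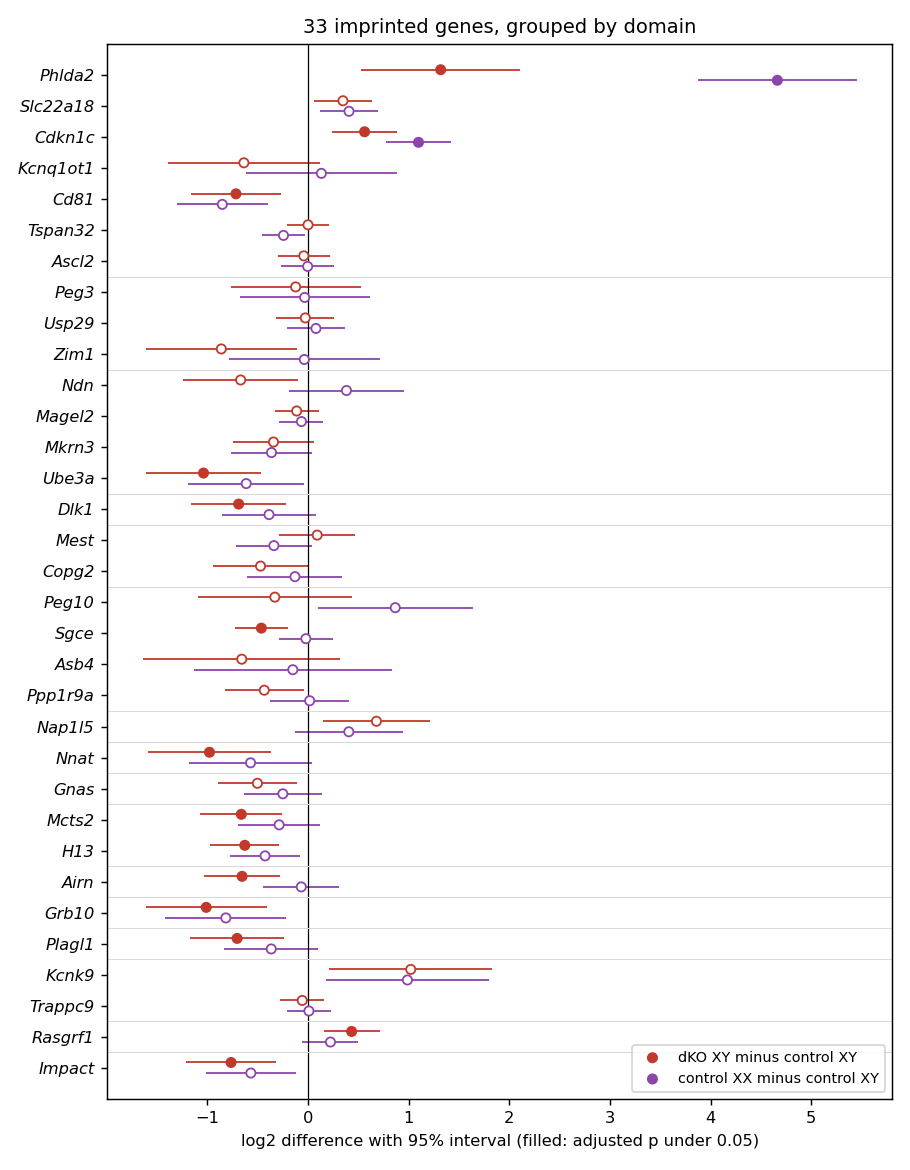
Log2 difference from control XY with its 95% interval for the 33 measured members, grouped by domain (grey lines), in dKO XY (red, upper) and control XX (purple, lower). Filled points have an adjusted p under 0.05: 14 members in dKO XY, 3 of them higher, and 2 in control XX, both higher.

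The members with the largest fall in dKO XY were Ube3a and Grb10. Grb10, an adaptor that restrains insulin receptor signalling, read 10.18, 11.22, 10.01 and 10.79 in dKO XY and 11.31, 11.77, 11.85 and 11.32 in control XY (-1.01 ± 0.28, adjusted p = 0.0287). Ube3a, the ubiquitin ligase that is maternally expressed in neurons, read 9.42, 9.93, 8.29 and 9.42 in dKO XY and 10.22, 10.41, 10.38 and 10.20 in control XY (-1.04 ± 0.27, adjusted p = 0.0255). Every dKO XY array was below every control XY array for both genes, and dKO XY 3 was the lowest for each. Dlk1, a transmembrane protein related to Notch ligands, read 6.98, 7.48, 6.98 and 7.35 in dKO XY and 7.80, 7.58, 8.34 and 7.84 in control XY (-0.69 ± 0.22, adjusted p = 0.0384). Plagl1, a zinc finger transcription factor linked to growth, read 9.08, 9.50, 8.88 and 9.33 in dKO XY and 9.88, 9.36, 10.30 and 10.07 in control XY (-0.71 ± 0.22, adjusted p = 0.0361), with the groups overlapping at dKO XY 2 and control XY 2. Control XX lay between the other groups by its mean for all 4 of these genes, at differences from control XY of -0.82 for Grb10, -0.61 for Ube3a, -0.39 for Dlk1 and -0.37 for Plagl1, none of which passed.

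On chromosome 2, Nnat, the small membrane protein neuronatin, read 9.24, 10.23, 9.49 and 9.76 in dKO XY and 10.62, 10.72, 11.08 and 10.21 in control XY (-0.98 ± 0.28, adjusted p = 0.0314), with dKO XY 2 above control XY 4. H13, a signal peptide peptidase, read 8.86, 9.45, 8.82 and 9.24 in dKO XY and 9.66, 9.65, 9.99 and 9.59 in control XY (-0.63 ± 0.16, adjusted p = 0.0249). Mcts2, a retrocopy that lies in an intron of H13, read 7.35, 7.37, 6.68 and 7.49 in dKO XY and 7.82, 7.84, 7.73 and 8.15 in control XY (-0.66 ± 0.19, adjusted p = 0.0304). H13 and Mcts2 were separated between the groups in all arrays, and since Mcts2 lies within H13 the pair may share signal. Sgce, epsilon-sarcoglycan, read 7.52, 7.75, 7.92 and 7.67 in dKO XY and 8.04, 8.13, 8.35 and 8.20 in control XY (-0.46 ± 0.12, adjusted p = 0.027), and its neighbour Peg10, with which it shares a promoter region, differed by -0.33 (adjusted p = 0.468). Airn, the paternally expressed noncoding RNA that is antisense to Igf2r, read 7.50, 7.58, 7.38 and 7.33 in dKO XY and 7.85, 7.79, 8.30 and 8.49 in control XY (-0.66 ± 0.17, adjusted p = 0.027). In dKO XY, Sgce and Airn also lay wholly below control XX, as did Phlda2 and Cdkn1c and no other measured member, where 2.23% of clusters did. Their differences from control XX of -0.44 for Sgce (adjusted p = 0.285) and -0.59 for Airn (adjusted p = 0.309) did not pass. Impact, a regulator of translation, read 9.49, 10.10, 9.15 and 9.79 in dKO XY and 10.20, 10.51, 10.57 and 10.31 in control XY (-0.77 ± 0.21, adjusted p = 0.0278). Rasgrf1, an exchange factor for Ras, was the third member that was higher, at 6.01, 5.74, 6.16 and 5.99 in dKO XY and 5.75, 5.57, 5.34 and 5.51 in control XY (0.43 ± 0.13, adjusted p = 0.0335), with dKO XY 2 just below control XY 1. Rasgrf1 was above the negative controls on no array, and of symbols under a mean level of 6, 24.1% were called higher. It passed under 4 of 10 alternatives (0.12 to 0.43) and in 6 of 12 fits without an array. How strand was treated is not given in the sources used here, so an overlapping or antisense partner cannot be told apart from these genes.

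The 19 members that did not pass between dKO XY and control XY spanned the range of levels. Peg3, a zinc finger protein and the brightest member, lay at 14.46 to 15.72 in dKO XY, 14.71 to 16.05 in control XX and 15.02 to 15.47 in control XY. Mest, a paternally expressed gene of mesoderm, lay at 11.07 to 11.60 in dKO XY, 10.52 to 11.30 in control XX and 11.08 to 11.31 in control XY. The groups overlapped for both genes, and Mest differed by 0.09 between dKO XY and control XY (adjusted p = 0.691), by 0.74 after quantile normalization (adjusted p = 0.0429), by 0.79 after cyclic loess (adjusted p = 0.0368) and by -0.17 with the arrays centred (adjusted p = 0.579). Ndn, the growth suppressor necdin, lay at 10.99 to 12.16 in dKO XY, 12.09 to 13.19 in control XX and 12.06 to 12.43 in control XY (-0.67 between dKO XY and control XY, adjusted p = 0.0698). Kcnk9 lay at 7.36 to 8.12 in dKO XY, all above control XY, with a difference of 1.02 (adjusted p = 0.0583). Nap1l5, a nucleosome assembly protein, was likewise above control XY on all 4 dKO XY arrays (0.68, adjusted p = 0.0562). Mkrn3, Magel2 and Ascl2 were the dimmest members, none of them above 5.73 on any array, and Usp29, Trappc9 and Tspan32 lay between 6.24 and 7.41. The remaining members, Slc22a18, Kcnq1ot1, Zim1, Copg2, Asb4, Ppp1r9a, Gnas and Peg10, had adjusted p values of 0.054 to 0.468.

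**Figure D4:**
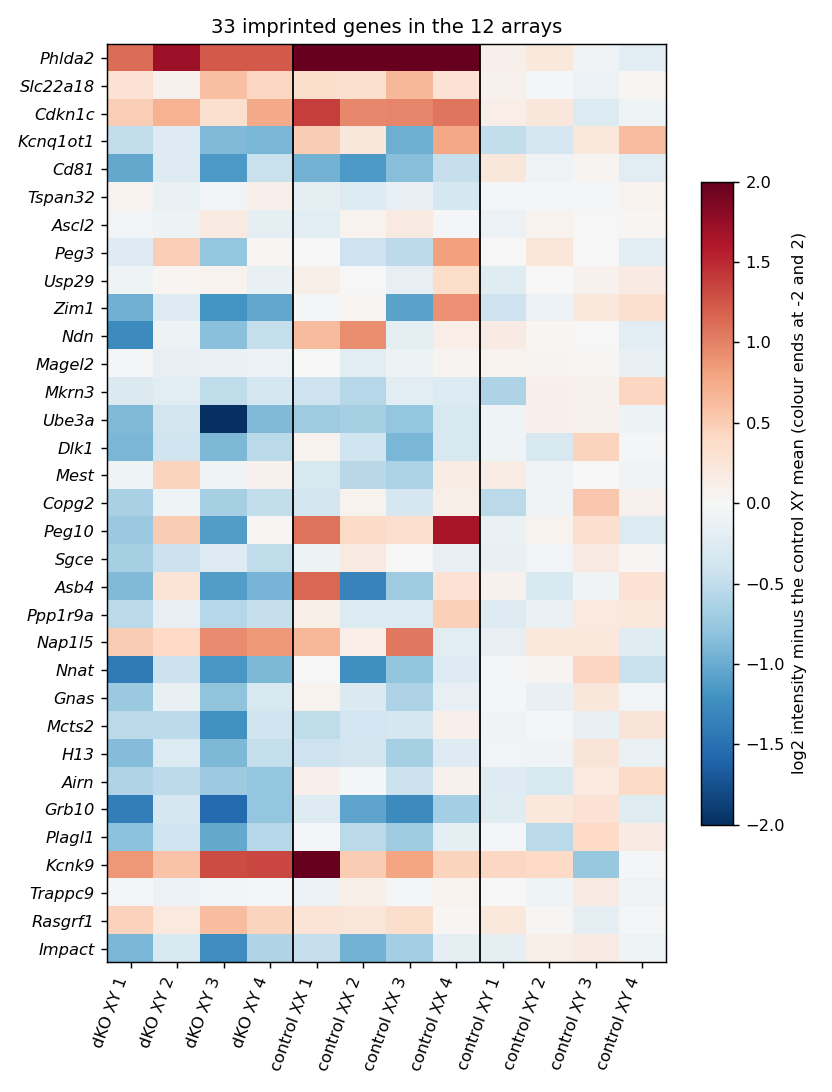
Log2 intensity of the 33 measured members in each of the 12 arrays, as the difference from the control XY mean of the gene (red higher, blue lower, the colours end at -2 and 2). Phlda2 and Cdkn1c are red across dKO XY and control XX, and dKO XY 1 and dKO XY 3 carry the deepest blues among the dKO XY arrays.

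Grouped by the parental allele that is usually expressed in the mouse, 3 of 9 maternally expressed members passed between dKO XY and control XY (2 higher, 1 lower), 8 of 17 paternally expressed members (1 higher, 7 lower) and 3 of 7 members whose imprinting depends on the tissue (all lower), where 26.5% of all clusters were called (16.7% higher, 9.8% lower). The medians were -0.04, -0.46 and -0.50. Between control XX and control XY 2 of 9 maternally expressed members passed, both higher, and none of 17 paternally expressed and none of 7 tissue-dependent members, with 2 and 4 of them under an unadjusted p of 0.05. Over all clusters 1.95% were called in that comparison (0.608% higher, 1.34% lower), and 14329 of 65956 had an unadjusted p under 0.05. Both members that passed between the control sexes belong to the Kcnq1 domain, of whose 7 measured members they are part. Differences between these allele groups were not tested, and the groups were not matched by level.

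The size of the dKO XY minus control XY difference followed the level of a gene over the whole array. The median over all symbols was 0.30 for symbols under a mean level of 6 and 0.23 between 6 and 7, and it was -0.15 between 7 and 8, -0.47 between 8 and 9, -0.65 between 9 and 10, -0.70 between 10 and 11 and -0.47 from 11 up. The members' medians in the same ranges were -0.04, -0.03, -0.34, -0.46, -0.63, -0.98 and -0.33. Among members with a mean level of 9 to 10, 4 of 7 were called lower, where 55.9% of symbols in that range were, and between 8 and 9 it was 1 of 5, where 44.5% were. Phlda2, with a mean level in the range of 8 to 9, and Cdkn1c, in that of 9 to 10, were called higher where 3.46% and 2.5% of symbols were. The mean level of Phlda2 was raised by control XX, at 10.80. In dKO XY and control XY its means were 7.45 and 6.13, in ranges where 8.96% and 23.7% of symbols were called higher. Between control XX and control XY the medians over all symbols in the same ranges were 0.18, 0.16, -0.08, -0.28, -0.40, -0.42 and -0.23. The signal contrast of the arrays had a mean of 3.11 in dKO XY and 4.07 in control XY (two-sided exact permutation test, p = 0.0571, adjusted p = 0.104 over 42 tests), and 3.41 in control XX and 4.07 in control XY (exact p = 0.0286, the smallest that 70 arrangements allow, adjusted p = 0.0601). Other array measures separated dKO XY from control XY. The positive control mean was 9.87 in dKO XY and 10.74 in control XY, and that of the ERCC probe sets 5.80 and 5.42. The median over clusters was 6.38 and 6.12 (exact permutation p = 0.0286 for each, not adjusted). The negative control mean was 6.76 and 6.68 (exact permutation p = 0.457). The part of these measures was not tested, and that of signal contrast only by the fit that holds it as a covariate. With signal contrast as a covariate in limma 0 members and 0 of 65956 clusters were called between dKO XY and control XY, 5 members and 2949 clusters had an unadjusted p under 0.05, and Phlda2 then differed by 1.81 (adjusted p = 0.992), while between control XX and control XY it differed by 5.0 (adjusted p = 0.000437).

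**Figure D5:**
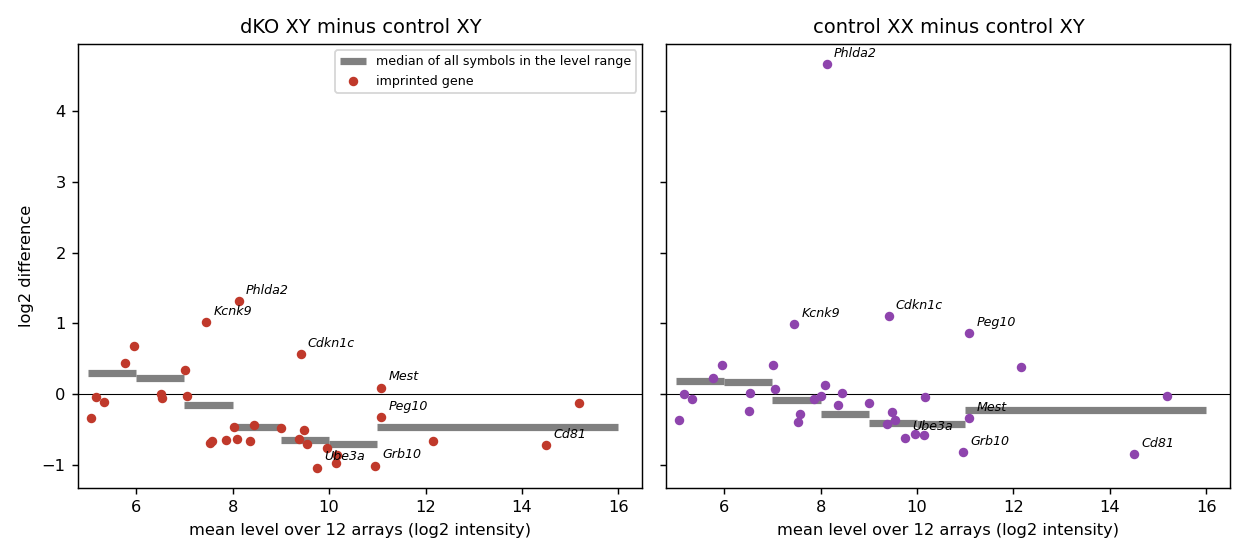
Log2 difference from control XY in dKO XY (left) and control XX (right) against the mean log2 intensity over the 12 arrays. Points are the 33 measured members and grey bars the median of all symbols in each range of levels. Most members lie near the grey bars. Phlda2, Kcnk9 and Cdkn1c lie above them in both panels, as do others by less, among them Slc22a18, Nap1l5 and Peg3.

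Further imprinted genes outside the list moved in both directions. Of 28 measured among 33 further imprinted genes, 7 passed between dKO XY and control XY, 2 higher and 5 lower, with a median of 0.05, and this 25% lies beside 26.5% of all clusters. Igf2r, the receptor that clears IGF2 and the maternally expressed partner of Airn, lay at 8.56 to 10.10 in dKO XY and 10.17 to 10.87 in control XY (-1.08, adjusted p = 0.0272). Peg12 was at -0.90 (adjusted p = 0.0231), Pon3 at -0.49, Peg13 at -0.50 and Commd1 at -0.44, whereas Calcr was higher at 0.51 and Cobl at 0.42. Between control XX and control XY 2 passed (7.14%, beside 1.95% of all clusters), both lower, Gatm at -3.60 (adjusted p = 0.000607) and Peg12 at -1.06 (adjusted p = 0.0263). Gatm, an enzyme of creatine synthesis that is imprinted in the placenta, lay at 9.77 to 11.46 in dKO XY, 7.38 to 8.77 in control XX and 10.94 to 12.16 in control XY. It was the only gene of this list that passed between dKO XY and control XX, being 2.57 higher in dKO XY (adjusted p = 0.0261).

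Of 20 genes listed as factors of imprint maintenance and DNA methylation, 12 passed between dKO XY and control XY, 1 higher and 11 lower, with a median of -0.56. Of all clusters 9.8% and of symbols 14.7% were called lower, but 13 of the 20 genes had a mean level of 8 to 11, where 44.5% to 55.9% of symbols were called lower. The lower ones included the methylcytosine oxidase genes Tet1 at -0.92 (adjusted p = 0.0316), Tet2 at -0.71 (adjusted p = 0.029) and Tet3 at -0.53 (adjusted p = 0.0271). Also lower were Zfp57, the zinc finger protein that protects imprints after fertilization, at -0.52 (adjusted p = 0.0379), the de novo methyltransferase gene Dnmt3a at -0.43 (adjusted p = 0.0366), and Smchd1 at -0.71 (adjusted p = 0.0351). Dnmt3l, the cofactor needed to set imprints in germ cells, was the gene that was higher, at 0.49 (adjusted p = 0.0376), and lay at 5.77 to 6.35 in dKO XY and 5.40 to 5.81 in control XY. None of the 20 passed between control XX and control XY, where 6 had an unadjusted p under 0.05, or between dKO XY and control XX, where 2 did. Of all 65956 clusters, 14329 and 6815 had such a p in these comparisons. The mean of the 14 germ cell markers, the cells in which imprints are reset, was 7.66 to 8.18 in dKO XY, 8.34 to 8.74 in control XX and 7.67 to 8.69 in control XY, and its part in these values was not tested.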

How the data were processed

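Gene expression was measured on Affymetrix Clariom D Mouse arrays in 12 samples. RNA of snap-frozen gonads was isolated with the Arcturus PicoPure kit, per the labels, and, according to the study's methods, amplified (Nugen WT-Ovation Pico) and biotin-labelled, and the authors compared RMA-normalized intensities with a one-way model in Partek Genomics Suite. The authors deposited log2 intensities per probe set, and whether these are exactly the values they compared is not stated. The medians over clusters were 6.02 to 6.52, so the arrays did not share a single distribution. The table has 72688 probe sets, 65956 of them transcript clusters, of which 30646 carried 1 gene symbol, 2168 several and 33142 none listed here, and 1324 positive and 5222 negative controls. The values spanned 2.79 to 19.93, the number of 4 arrays per group limits the precision, and the genome build is not given in the sources used here. The labels give E12.5 for these samples, whereas the data statement of the study assigns the set to a later stage. The labels were followed, and the 4 arrays per group match the number that the study's methods give for E12.5. Labels or headers name no batch.

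The deposited log2 values were used as they stood. A 3-group model was fitted over all 65956 clusters with limma 3.58.1 in R 4.3.3, with Benjamini-Hochberg adjustment over all clusters, an adjusted p of 0.05 and, as in the study, a 2-fold threshold. Single values per array were compared by exact permutation. Each symbol was read from its cluster of highest mean. The members, gene lists and tests were chosen with earlier results of these data known. Values in every array were given for members that passed in a comparison, and other members by ranges and counts. Promoter stretches and gene order came from RefSeq tables (Python 3.11.15), and figures were drawn with matplotlib 3.10.9. The model was tested on simulated data for dKO XY against control XY over 65956 clusters, with the spread seen within groups. Log2 changes of 0.5, 1 and 2 were given to 67, 67 and 66 clusters, of which it recovered 5.97%, 56.7% and 89.4%. In the deposited values 17501 clusters were called in this comparison. The adjusted p depends on the share of changed clusters, so these rates hold only where few clusters change. Alternatives were quantile normalization, median centring, a filter on dim clusters, signal contrast as a covariate, only 2 groups, an intensity trend, no moderation, only clusters with 1 symbol, a replicate block and leaving out each array. Cyclic loess normalization and leaving out the 2 dKO XY arrays of lowest signal contrast were added after seeing the data.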

Additional observations from a re-analysis of the deposited data

Results flagged for a closer look

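In 4 of 99 groups of 4 arrays looked at over the 33 members, 1 array stood far from the other 3, with a gap over Dixon's 95% critical share of the range of the group, and chance gives about 1 in 20 groups, 4.95 here. Phlda2 read 9.35 in control XX 1, below the 11.16 to 11.44 of the other control XX arrays. Slc22a18, its neighbour, read 7.43 in control XX 3, above 7.06 to 7.12. Tspan32 read 6.67 in control XY 4, above 6.57 to 6.58. Asb4, which encodes a SOCS box protein, read 8.91 in dKO XY 2, above 7.51 to 7.75.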

How the results depend on the processing

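Phlda2 stayed above control XY in control XX under all 10 alternatives that could measure it (4.49 to 5.0, highest adjusted p 0.00217) and in all 12 fits without an array (4.45 to 5.15), and it stayed lower in dKO XY than in control XX under all 10 (highest adjusted p 0.0498). Cdkn1c stayed above control XY in control XX under all 10 (0.93 to 1.42, highest adjusted p 0.0186). Between dKO XY and control XY, Phlda2 passed under 5 of 10 alternatives (1.05 to 1.81) and in 6 of 12 fits without an array, and Cdkn1c under 7 of 10 (0.30 to 1.13) and in 7 of 12. The filter on dim clusters left 5574 clusters and 8 members, without Phlda2 and Cdkn1c. The count of 14 members between dKO XY and control XY became 2 after quantile normalization, 3 after the dim filter, 0 with signal contrast as a covariate, 4 without moderation, 3 after cyclic loess and 0 without the 2 dKO XY arrays of lowest signal contrast (in limma, 7 members had an unadjusted p under 0.05), and it ran from 0 to 22 over the fits without an array. With the arrays centred it was 15, all lower, of which 11 were among the 14. The 3 members past 2-fold became 0 after quantile normalization, 1 after the dim filter, 0 with the covariate, 0 without moderation and 0 without the 2 arrays, and 0 to 6 over the fits without an array. Between control XX and control XY the 2 members became 0 after the dim filter (3 with an unadjusted p under 0.05), 4 with only these groups in the fit (2 of them lower) and 4 after cyclic loess, and 2 to 3 without an array, and past 2-fold they became 1 with centring and 0 after the dim filter. Between dKO XY and control XX the 1 member became 0 after the dim filter, called or past 2-fold (4 of 8 with an unadjusted p under 0.05), and stayed 1 without any array. Over all clusters, 17501 were called between dKO XY and control XY as deposited, 1810 after quantile normalization, 4695 after cyclic loess, 6958 without moderation, 10849 with only these groups, 0 with the covariate (2949 with an unadjusted p under 0.05) and 4 without the 2 arrays. The 1284 clusters called between control XX and control XY became 391 with the covariate and 787 without moderation, and between dKO XY and control XX 142 became 34 without moderation to 262 after cyclic loess. The causes were not tested, except that the dim filter removes Phlda2 and Cdkn1c by construction. Every member had a single cluster, so averaging the clusters of a symbol changes nothing.

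The replicate numbers did not pair the arrays, since deviations of arrays with the same number correlated at -0.406 to 0.369 and in 7 of 24 settings of an array against another group its own number correlated best. With the replicate number as a block, 13 members passed between dKO XY and control XY (4 higher, 9 lower, 12 of them among the 14) and 3 past 2-fold, 2 between control XX and control XY and 1 between dKO XY and control XX. Signal over background was the limit for dim genes, since 21 of 33 members lay below the 95th percentile of the negative controls on every array.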
